A study of Mus musculus with 6 samples.

Results

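Lysosomes are the acidic organelles in which cells digest proteins, sugars and lipids. Their inside is acidified by the V-ATPase, a rotary pump whose cytosolic V1 sector hydrolyses ATP and whose membrane V0 sector carries protons. The acid activates cathepsins, which are proteases, and glycosidases, which trim sugars from glycoproteins and glycolipids, while heavily glycosylated membrane proteins such as LAMP1 line the organelle. In fibroblast-like cells these enzymes also take part in the turnover of endocytosed matrix. The genes described here are 35 of the 16671 genes in the table, taken by symbol from a given list of V-ATPase subunits, cathepsins, hydrolases and lysosomal membrane proteins. All 35 were found and all passed the filter on low values, a mean of at least 1.

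The cells were fibro-adipogenic progenitors (FAPs), mesenchymal cells of the muscle interstitium, isolated by FACS out of hind limb muscles of wild type mice aged 4 to 5 months. The 3 C1q libraries came from FAPs given C1q, the recognition protein of the classical complement pathway, at 100 µg/ml, and the 3 Control libraries from FAPs given vehicle. How long the cells were exposed is not stated in the labels, nor is whether the replicates came from separate animals or cultures. The p-values therefore reflect the spread among these 6 libraries alone, and that spread could be technical. Each library was made from 10 ng of total RNA, and one label speaks of muscle stem cells where the others name FAPs.

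The reads on genes numbered 24046020 to 31929119 in the C1q libraries and 5379209 to 38861152 in the Control libraries, with Control replicate 3 the shallowest. FAP marker genes were abundant in all 6 libraries, the receptor gene Pdgfra at 32857 ± 1308 normalised reads with C1q and 19529 ± 4229 in Control (SD, n = 3), and the Sca-1 gene Ly6a at 15679.8 ± 2136 with C1q and 14045 ± 596 in Control. Of the 9 FAP markers 6 were called higher with C1q and 0 lower, opposite to the direction of most of the lysosomal genes, and they summed to 691351, 832945 and 649327 in C1q replicates 1 to 3 and 362398, 456594 and 490291 in Control replicates 1 to 3. The tenocyte markers summed to 2059.5, 1729.9 and 3071 with C1q and 689, 781 and 1016 in Control, and the pericyte and smooth muscle markers to 1284, 1356 and 1667 with C1q and 907, 1093 and 909.7 in Control. Over the 6 myogenic markers the summed level was 3821, 5105 and 4717 in C1q replicates 1 to 3 and 18707, 10419 and 5463 in Control replicates 1 to 3. Of these 6 markers 4 were called lower with C1q and 0 higher, against 18.7% and 19.7% of all genes. Their median log2 fold change was -1.48. Pax7, which marks muscle stem cells, had at most 8 normalised reads in any library, so other markers of the list made up the sums. Over the 9 macrophage markers in the table the sums were 481, 843 and 495 with C1q and 559, 585 and 825 in Control. Among these 9 markers 2 were called lower with C1q and 0 higher, against 18.7% and 19.7% of all genes. The median log2 fold change of the 9 was -0.54, and 5 of them, Adgre1 and Fcgr3 included, were at 0 in some library. Mitochondrially encoded genes took 1.85% to 2.25% of the normalised reads with C1q and 3.98% to 5.29% in Control. The part of the marker sums and of the mitochondrial share in the results was not tested. A repeat with Control replicate 3 as the only control, given below, used the Control library with the lowest myogenic sum. It is not a test of these differences, as that library still differed from the C1q libraries in its FAP marker sum and mitochondrial share. In bulk RNA, fewer cells of a type and less RNA per cell cannot be told apart.

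Most of the lysosomal genes were lower in C1q-treated FAPs, with falls in every class of them. Of the 35 genes, 30 fell, 0 rose and 5 were not called (limma-trend on log2(value + 1), Benjamini-Hochberg adjusted p below 0.05 over all 16671 genes). Over all genes the test called 18.7% lower and 19.7% higher, 38.3% in all. The median log2 fold change was -0.56 for the 35 genes and 0.029 for all genes. Together the 35 genes took 0.935% to 1.02% of the normalised reads in C1q libraries and 1.4% to 1.45% in Control libraries. For 32 genes every C1q library lay below every Control library, against 25.4% of all genes, and for 33 the groups did not overlap in either direction, against 52.1% of all genes. With edgeR and TMM scaling on the recovered reads 32 were lower and 0 higher, against 25.1% and 23.4% of the genes it tested, and a fit blocked on replicate number gave 32 and 0, against 19.7% and 21.3%.

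**Figure D1:**
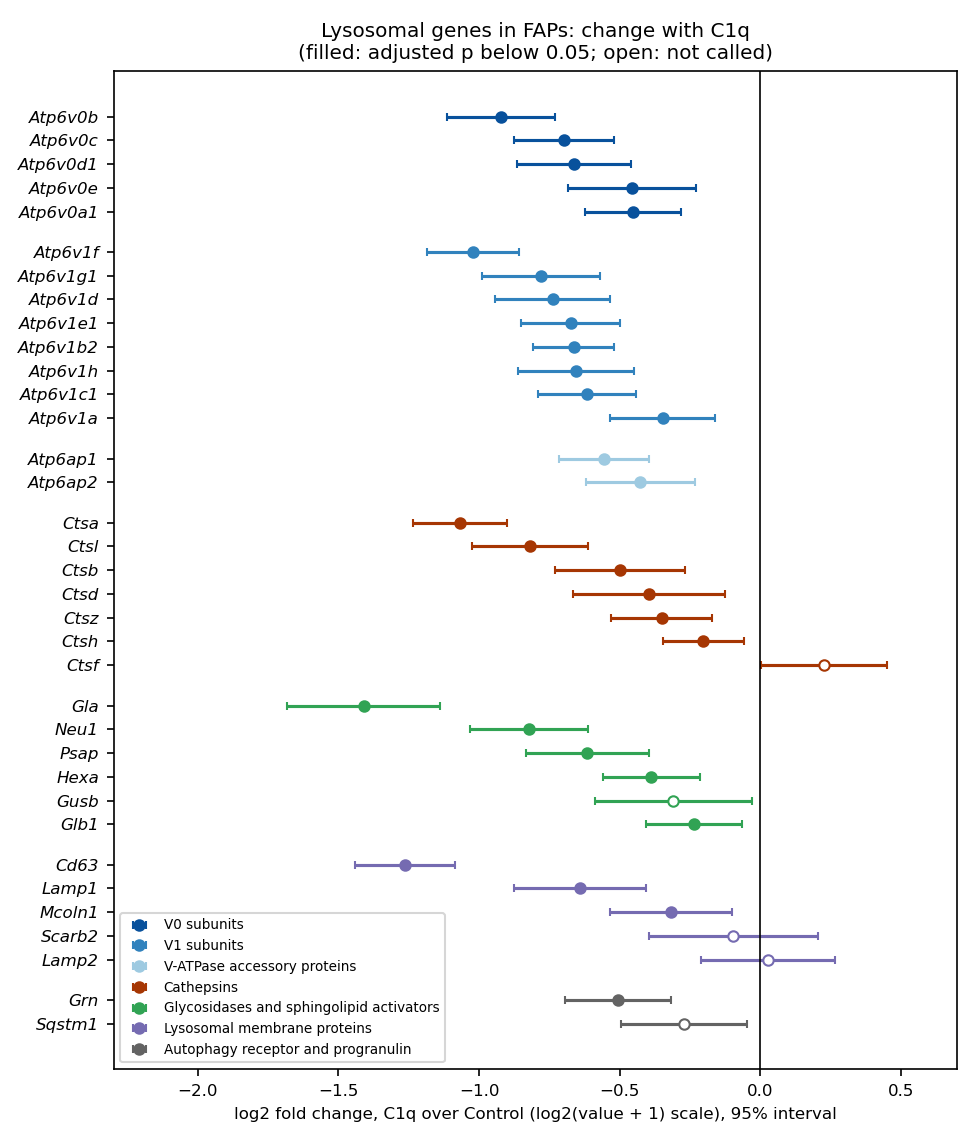
Log2 fold change of each of the 35 genes, C1q over Control, by class, with the 95% interval from the fit; filled points were called at an adjusted p below 0.05 and open points were not. The points of 30 genes are filled and lie left of 0, from -1.41 for Gla to -0.20 for Ctsh, and 5 are open.

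Fold changes in this table ran with transcript length, and most of these genes have short to middling transcripts. Genes with a mean of at least 20 were split by length into 5 bins of near-equal size. The median log2 fold change was -0.38 in the bin with the shortest transcripts, where 50.3% were called lower, and 0.38 in the bin with the longest, where 5.62% were. From short to long the bins held 6, 17, 5, 6 and 1 of the 35 genes. The part of transcript length in the changes was not tested beyond removing this trend. With a loess trend on the length of the longest annotated transcript removed, 25 of the 35 genes fell and 1 rose, against 18.7% lower and 14.6% higher over the 14934 genes with a known length, and the median was -0.42. Ctsd, Ctsh, Ctsz, Glb1 and Mcoln1 lost their calls and Ctsf gained one.

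**Figure D2:**
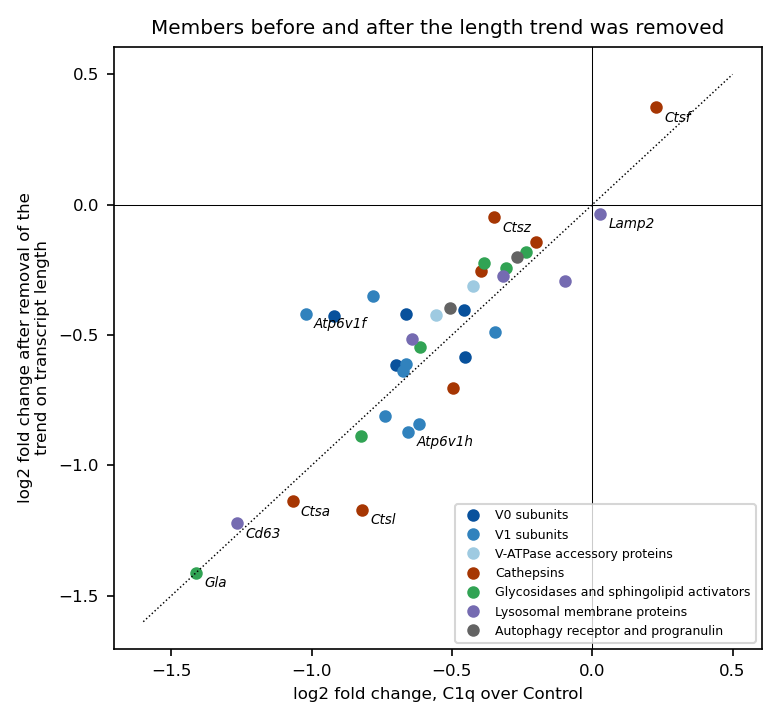
Log2 fold change of each of the 35 genes, C1q over Control, as fitted (horizontal) and after removal of the trend on transcript length (vertical), coloured by class; the dotted line marks equal values. Gla, Cd63 and Ctsa stay near the line, Ctsl and Atp6v1h lie below it, and Atp6v1f and Ctsz lie above it, Ctsz close to 0.

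Lysosomal genes are known to share a promoter element, the CLEAR element bound by the transcription factors TFEB and TFE3, whose core is an E-box. Promoter windows from RefSeq (GRCm38.p6, 250 bases before to 50 bases after a start site) were available for 29 of the 35 genes, not for Atp6v1b2, Atp6v1c1, Atp6v1g1, Atp6v1h, Ctsb and Ctsh. The motif TCACGTGA, which reads the same on both strands and contains the E-box CACGTG, was found in 7 of these 29 genes (24.1%), against 1.97% of the 12371 tested genes with a window and 0.974% of all 32851 windows. The longer CLEAR palindrome, TCACGTGA with G before it and C after it, was found in 0 of the 29 and in 0.695% of the tested genes. CACGTG alone was found in 12 of the 29 (41.4%) and in 11.1% of the tested genes. The whole windows of Gla and Ctsa are shown because these genes fell most among the enzymes and hold the motif at 2 places, and that of Lamp1 because it holds 4 E-boxes. Capitals mark TCACGTGA in Gla and Ctsa and CACGTG in Lamp1, each read 5′ to 3′ on the gene's strand.
Gla, chrX:134600956-134601255, minus strand: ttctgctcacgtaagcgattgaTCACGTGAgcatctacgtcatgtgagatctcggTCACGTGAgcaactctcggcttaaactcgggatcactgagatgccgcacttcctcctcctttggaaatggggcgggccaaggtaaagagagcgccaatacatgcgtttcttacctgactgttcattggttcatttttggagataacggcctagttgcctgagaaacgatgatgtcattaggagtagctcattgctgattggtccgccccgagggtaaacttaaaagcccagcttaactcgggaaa
Ctsa, chr2:164833523-164833822, plus strand, around an alternative start: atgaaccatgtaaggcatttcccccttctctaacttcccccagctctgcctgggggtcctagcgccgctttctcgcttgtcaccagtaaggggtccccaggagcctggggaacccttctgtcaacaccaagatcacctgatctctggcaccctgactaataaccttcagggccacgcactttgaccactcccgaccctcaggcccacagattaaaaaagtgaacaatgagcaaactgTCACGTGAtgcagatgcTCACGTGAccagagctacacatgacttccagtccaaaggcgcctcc
Lamp1, chr8:13158911-13159210, plus strand: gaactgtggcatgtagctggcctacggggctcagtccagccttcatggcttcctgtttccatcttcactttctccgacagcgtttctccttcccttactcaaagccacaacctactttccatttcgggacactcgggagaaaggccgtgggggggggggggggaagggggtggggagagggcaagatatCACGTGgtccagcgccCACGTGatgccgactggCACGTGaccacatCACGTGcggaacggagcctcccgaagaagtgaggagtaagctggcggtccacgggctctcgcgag

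The other carriers of TCACGTGA are shown as stretches of 60 bases around the motif, in capitals, to compare what flanks it.
Atp6v0d1, chr8:105566035-105566094, minus strand: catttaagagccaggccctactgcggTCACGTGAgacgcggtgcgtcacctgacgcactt
Atp6v0e, chr17:26676372-26676431, plus strand: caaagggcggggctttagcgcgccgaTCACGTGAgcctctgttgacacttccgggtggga
Atp6v1a, chr16:44139358-44139417, minus strand: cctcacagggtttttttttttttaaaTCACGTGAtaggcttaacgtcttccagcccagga
Ctsd, chr7:142387893-142387952, minus strand: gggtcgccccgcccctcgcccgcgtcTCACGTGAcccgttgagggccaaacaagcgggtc
Mcoln1, chr8:3500447-3500506, plus strand: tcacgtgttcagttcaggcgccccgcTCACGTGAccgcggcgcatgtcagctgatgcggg
The motif began 4 bases before the start site in Atp6v0d1, 46 in Mcoln1, 99 in Ctsd, and 195 and 228 in Gla. It began at base 3 of the transcript in Atp6v0e. For Atp6v1a it began 132 bases before an alternative start. That start and the stretch shown lie inside the gene, whose 5′ end is at 44139702. In Ctsa it began 13 bases before the alternative start and again at base 5. All 7 carriers were called lower, with a median log2 fold change of -0.46, and 17 of the 22 members without it were, with a median of -0.53. Of the 244 tested genes that hold the motif, 75 (30.7%) were lower and 46 (18.9%) higher, against 19.7% and 20.5% of all genes with a window.

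The mRNAs of the proton pump fell together. All 15 V-ATPase genes were lower with C1q, by 1.27-fold to 2.03-fold, and in each of them all C1q libraries lay below all Control libraries. Over all genes 18.7% were called lower and 25.4% lay apart in this way. The 15 genes summed to 25496, 24697 and 23996 normalised reads in C1q replicates 1 to 3 and to 38977, 36268 and 37193 in Control replicates 1 to 3; the mean sum fell by 34.0%. The changes were close to each other, with an SD of 0.18 over the 15 log2 fold changes around a median of -0.66, against an SD of 0.42 over the other 20 genes. All 15 were also lower with the length trend removed, with a median of -0.49, against 18.7% of the genes with a known length called lower.

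**Figure D3:**
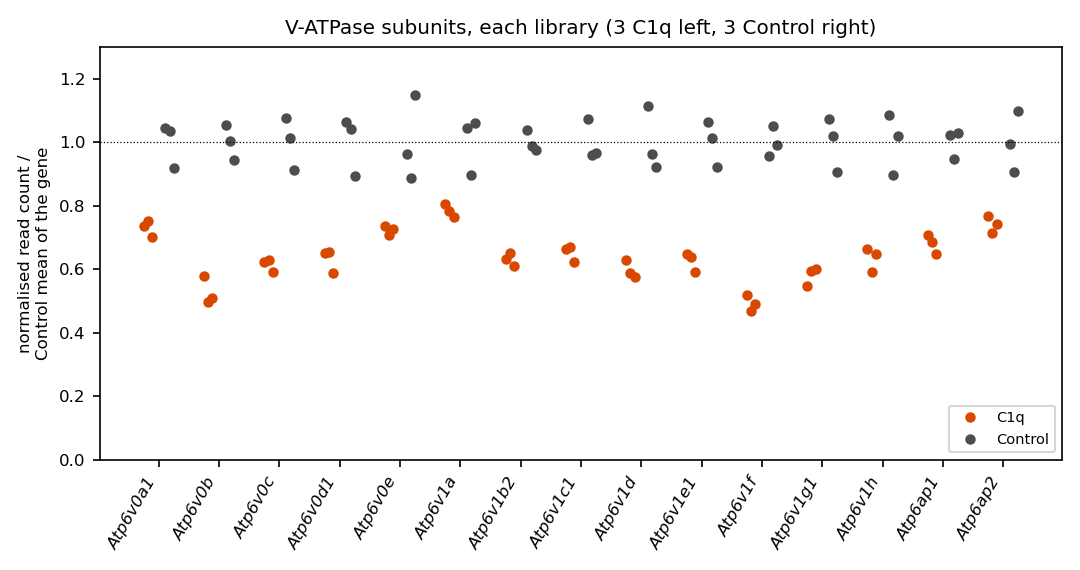
Normalised read count of each V-ATPase gene in each library, divided by the mean of its 3 Control libraries (dotted line at 1). C1q libraries (orange) are left of Control libraries (grey) for each gene; they lie between 0.468 and 0.807, below every Control library, which lie between 0.887 and 1.15.

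In the membrane sector, all 5 V0 genes fell, against 18.7% called lower over all genes, with log2 fold changes from -0.92 to -0.45. Atp6v0c (Entrez gene 11984, chromosome 17, 24163865 to 24169678; all gene positions are on GRCm38) encodes the proteolipid c subunit that forms the rotating proton ring. It stood at 1833, 1847 and 1741 normalised reads in C1q replicates 1 to 3, against 3159, 2974 and 2678 in Control replicates 1 to 3, a log2 fold change of -0.70 ± 0.076 (SE) with an adjusted p of 5.64e-04. The groups were well apart, the highest C1q library lying far under the lowest Control library. Atp6v0b, for the related c″ proteolipid, fell the most in this sector, to 979 ± 82.7 with C1q against 1853 ± 103 in Control (-0.92, adjusted p 3.09e-04), a difference that was -0.43 with the length trend removed. Atp6v0d1, for the d subunit at the base of the central stalk, had 2023, 2034 and 1827 with C1q and 3307, 3245 and 2780.2 in Control (-0.66, adjusted p 0.00109). Atp6v0a1, for an a subunit with the proton half-channels, and Atp6v0e, for the small e subunit, changed least, by -0.45 and -0.46.

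In the cytosolic sector, all 8 V1 genes fell, against 18.7% called lower over all genes, with log2 fold changes from -1.02 to -0.35. Atp6v1f (Entrez gene 66144, chromosome 6, 29467783 to 29470509), for the F subunit of the central stalk, stood at 1049, 946 and 991 in C1q replicates 1 to 3, against 1935, 2127 and 2002 in Control replicates 1 to 3. This 2.03-fold fall was the largest of the pump (-1.02 ± 0.07 SE, adjusted p 1.96e-04), but its transcript is the shortest of the 35 genes and the value with the length trend removed was -0.42 (adjusted p 0.00466). Atp6v1a and Atp6v1b2 encode the A and B subunits of the catalytic ring. Atp6v1a had 3703, 3589.5 and 3508 with C1q and 4789, 4117 and 4863 in Control, the smallest change of the pump (-0.35, adjusted p 0.0118, and 0.0509 without C1q replicate 3). Atp6v1b2 had 1306, 1346 and 1260.3 with C1q and 2144, 2042 and 2015 in Control, with Control libraries almost level with each other (-0.66, adjusted p 3.37e-04). The stalk and regulatory subunit genes Atp6v1c1, Atp6v1d, Atp6v1e1, Atp6v1g1 and Atp6v1h lay between -0.78 and -0.62, with adjusted p from 6.08e-04 to 0.00122. Of these, Atp6v1c1 and Atp6v1h moved to -0.84 and -0.87, and Atp6v1g1 to -0.35, with the length trend removed. The accessory genes also fell. Atp6ap1, whose product helps assemble V0, was at 4627 ± 196 with C1q against 6801 ± 304 in Control (-0.56), and Atp6ap2, known as the prorenin receptor, at 1461 ± 51.7 with C1q against 1968 ± 189.9 in Control (-0.43).

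The alternative subunits and assembly genes of the pump were mixed. Of 18 in the table, 4 were lower and 4 higher, close to the 18.7% and 19.7% over all genes, with a median log2 fold change of -0.065. Atp6v0d2, an alternative d subunit known from osteoclasts and macrophages, stood at 16.2, 28.3 and 12 in C1q libraries and 184, 251 and 166 in Control libraries, 10.6-fold lower (adjusted p 3.81e-04). It made up 0.65% to 1.37% of the d subunit counts with C1q and 5.26% to 7.18% in Control, so Atp6v0d1 supplied most of them in both groups. The 4 osteoclast markers in the table summed to 259, 267 and 292 with C1q and 353, 509 and 527 in Control. Most of each sum was Acp5, at 222, 220 and 243 with C1q and 340, 467 and 480 in Control. Acp5 was called lower (25% of the 4, against 18.7% of all genes) and the other 3 were not called. The median log2 fold change of the 4 was 0.43. The part of these markers in the fall of Atp6v0d2 was not tested. Tcirg1, for the a3 subunit, fell to 716 ± 38.5 with C1q against 966 ± 70.9 in Control (-0.43, adjusted p 0.00513). Atp6v0a2, for the a2 subunit of Golgi and endosomes, had 1138, 1075 and 1111 with C1q and 1341, 933 and 1131 in Control, with overlapping groups (-0.019, 95% interval -0.31 to 0.27). The member Atp6v0a1 made up 42.5% to 45.9% of the a subunit counts with C1q and 45.7% to 52.5% in Control. The tissue-restricted subunit genes were low, with means of 60 with C1q and 71.2 in Control for Atp6v0a4, 16.5 with C1q and 20.5 in Control for Atp6v1g2, 2.77 with C1q and 5.1 in Control for Atp6v1c2 and 2.88 with C1q and 1.49 in Control for Atp6v1b1. None of these was called, nor was Atp6v0e2 (-0.085), with adjusted p from 0.395 to 0.836.

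Dmxl1 and Dmxl2, which encode rabconnectin proteins that promote V1 to V0 assembly, rose to 1273 ± 76.1 and 111 ± 1.39 with C1q, against 673 ± 91.7 and 65.9 ± 15.3 in Control (0.93 and 0.77, adjusted p 7.45e-04 and 0.0188). Oxr1 and Ncoa7, of the TLDc family that binds V1, rose by 0.64 and 0.69 (adjusted p 0.00375 and 0.00437). The partner genes Wdr7 and Rogdi were at 0.34 and 0.25 and were not called (adjusted p 0.0504, or 0.0323 with the replicate number as a block, and 0.213). With the length trend removed Dmxl1 and Oxr1 were at 0.31 and 0.45 (adjusted p 0.025 and 0.0176), Dmxl2 and Ncoa7 at 0.19 and 0.27 (adjusted p 0.478 and 0.108), and Rogdi, then called higher, at 0.56 (adjusted p 0.0221). The genes for V0 assembly in the endoplasmic reticulum were mixed. Tmem199 fell to 96.4 ± 7.09 with C1q against 202 ± 31.8 in Control (-1.05, adjusted p 0.00192), while Vma21 and Ccdc115 stood at -0.17 and -0.045 (adjusted p 0.0691 and 0.801). Rnasek, for a small V0-associated protein, fell by 0.68 on the log2 scale, but stood at -0.058 (adjusted p 0.666) with the length trend removed.

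The cathepsins had a wide range of changes. Of 7, 6 fell and 1 was not called, against 18.7% called lower over all genes, with log2 fold changes from -1.07 to 0.23. Their sum was 88721, 82092 and 83801 normalised reads in C1q libraries and 122635, 118718 and 127231 in Control libraries; the mean sum fell by 30.9%. With the length trend removed 3 of the 7 fell and 1 rose, against 18.7% lower and 14.6% higher over all genes with a known length.

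Ctsa encodes cathepsin A, the serine carboxypeptidase that also protects the lysosomal galactosidase and neuraminidase in a complex (Entrez gene 19025, chromosome 2, 164832872 to 164841032). It stood at 6898, 6369 and 6352 in C1q replicates 1 to 3 against 14192, 13298 and 13625 in Control replicates 1 to 3, 2.10-fold lower (-1.07 ± 0.072 SE, adjusted p 1.96e-04). The C1q libraries lay at about the same level as each other and far below the Control libraries. Ctsl, for the endopeptidase cathepsin L, had 12439.5, 12461 and 11371 with C1q and 19874, 21415 and 22782 in Control (-0.82, adjusted p 5.34e-04, and -1.17 with the length trend removed).
Ctsb, for cathepsin B, had 22518, 21413 and 23169 with C1q and 29439, 31073 and 34366 in Control (-0.50, adjusted p 0.00627). The groups did not overlap in any of these genes. Exons of Fdft1 overlap Ctsb on the other strand, as do exons of Pltp and Neurl2 with Ctsa, and without a stated strand setting their reads cannot be told apart. The same holds for Atp6v0b, Atp6v1e1, Atp6v1h, Ctsl, Ctsz, Hexa, Lamp1, Grn and Sqstm1, which also share exon sequence with a gene on the other strand.

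Ctsd, for the aspartic protease cathepsin D, was the most abundant cathepsin gene, with a level of 20182 normalised reads per kilobase of transcript in Control. It had 35154, 30608 and 32009 with C1q and 46709, 39167 and 42906 in Control, a smaller change with wider spread (-0.40, adjusted p 0.0303). Its call was lost when any library other than Control replicate 2 was left out (adjusted p 0.0506 to 0.110) and with the length trend removed (-0.25, adjusted p 0.157). Ctsz, for the carboxypeptidase cathepsin Z, had 6781 ± 320.4 with C1q and 8651 ± 539 in Control (-0.35, adjusted p 0.00945), but -0.048 with the length trend removed (adjusted p 0.657). Ctsh, for the aminopeptidase cathepsin H, changed little (2499 ± 114 with C1q, 2873 ± 37.2 in Control, -0.20, adjusted p 0.0343). Its call was lost in 5 of the fits that left out a library (adjusted p up to 0.140). Ctsf, for cathepsin F, had 1999.6, 1987 and 2027 with C1q and 1474, 1811 and 1883 in Control, without overlap. The test did not call it (0.23, adjusted p 0.103), but did once the length trend was removed (0.37, adjusted p 0.0268).

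**Figure D4:**
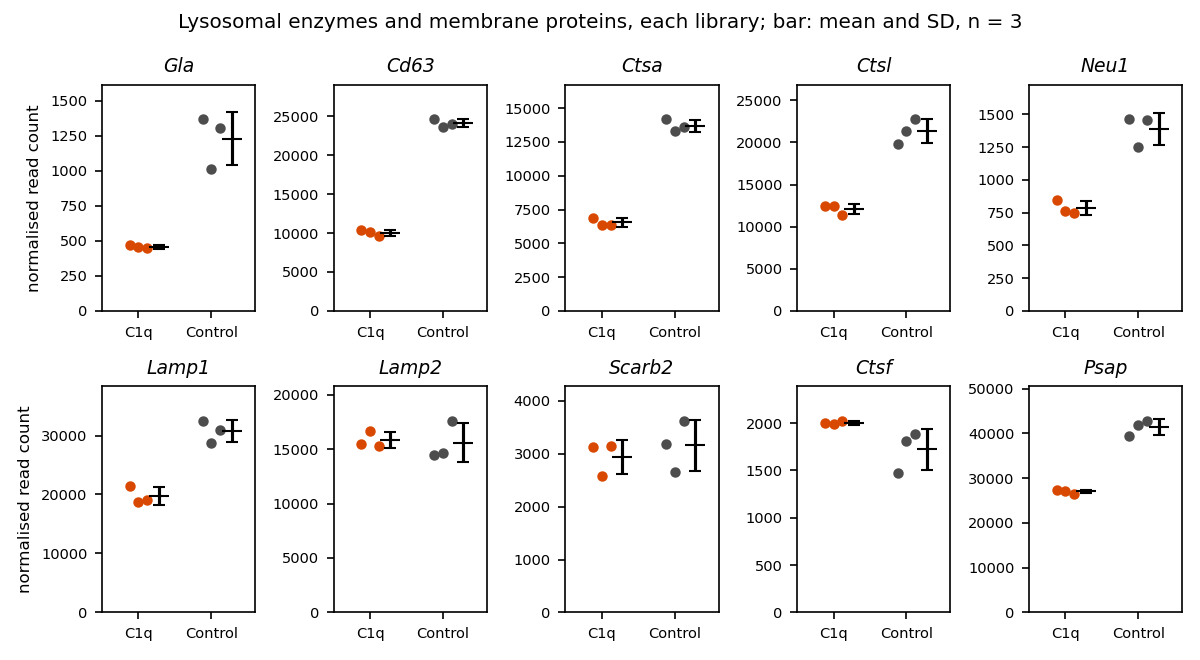
Normalised read counts of 10 lysosomal genes in each library, C1q (orange) left of Control (grey), with the mean and SD of 3 libraries in black. The groups are apart for Gla, Cd63, Ctsa, Ctsl, Neu1, Lamp1 and Psap, overlap for Lamp2 and Scarb2, and Ctsf lies slightly higher with C1q.

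Among the sugar-cleaving hydrolases and sphingolipid activators, 5 of 6 fell and 1 was not called. In all 6 the C1q libraries lay below the Control libraries. Over all genes 18.7% were called lower and 25.4% lay apart in this way. Gla encodes alpha-galactosidase A, the enzyme of globotriaosylceramide breakdown that is lost in Fabry disease (Entrez gene 11605, chromosome X, 134588169 to 134601005). It had 471, 457 and 446 in C1q replicates 1 to 3 against 1370.5, 1014 and 1305 in Control replicates 1 to 3, the largest fall of the 35 genes at 2.66-fold (-1.41 ± 0.12 SE, adjusted p 2.58e-04). The C1q libraries were within a narrow range, and the lowest Control library lay far above the highest of them.
Neu1, for the lysosomal neuraminidase, had 847, 761 and 744 with C1q and 1464, 1247 and 1458 in Control (-0.82, adjusted p 5.64e-04). Psap, the precursor of the saposins that present lipids to these enzymes, had 27318, 27198 and 26542 with C1q and 39381, 41955 and 42851 in Control (-0.61, adjusted p 0.00205). Glb1, for beta-galactosidase, the other enzyme that cathepsin A protects, was at 3106 ± 229 with C1q and 3651 ± 92.5 in Control (-0.24, adjusted p 0.0368).

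Hexa, for the alpha chain of beta-hexosaminidase, fell to 6371 ± 409 with C1q against 8323 ± 279.7 in Control (-0.39, adjusted p 0.0052). Gusb, for beta-glucuronidase, had 1869, 1812 and 1576 with C1q and 2579, 1998 and 1968 in Control. Control replicate 1 stood above the other two, and the gene was not called (-0.31, 95% interval -0.59 to -0.029, adjusted p 0.0794, or 0.0223 with the replicate number as a block). The call for Glb1 was lost when any library other than Control replicate 2 was left out (adjusted p 0.0602 to 0.134).

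Of the 5 lysosomal membrane genes 3 fell and 2 were not called, against 18.7% called lower over all genes. Cd63 and Lamp1 fell, Mcoln1 fell slightly, and Lamp2 and Scarb2 were not called. Cd63, for a tetraspanin of late endosomes and exosomes (Entrez gene 12512, chromosome 10, 128896231 to 128912822), stood at 10393, 10106 and 9595 in C1q replicates 1 to 3 against 24647, 23612 and 24019 in Control replicates 1 to 3, 2.40-fold lower (-1.26 ± 0.076 SE, adjusted p 1.48e-04). Replicates agreed closely in both groups. Lamp1 had 21472, 18669.7 and 19052 with C1q and 32541, 28787 and 30905 in Control (-0.64, adjusted p 0.00224). Its relative Lamp2, whose products include the receptor of chaperone-mediated autophagy, was counted as a whole gene, without its transcript forms apart. It had 15511, 16647 and 15313 with C1q and 14417, 14661 and 17629 in Control. The groups overlapped (0.029, 95% interval -0.21 to 0.27, adjusted p 0.851). The interval for Lamp2 leaves out a fall as large as that of Lamp1, whose interval was -0.87 to -0.41.

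Scarb2, for LIMP-2, the receptor that carries glucocerebrosidase to lysosomes, had 3122, 2573 and 3138 with C1q and 3189, 2659 and 3626 in Control. In each group replicate 2 was the lowest, and the groups overlapped (-0.096, 95% interval -0.40 to 0.20, adjusted p 0.595). Mcoln1, for the calcium channel TRPML1, was at 803 ± 65.3 with C1q and 1001 ± 86.2 in Control (-0.32, adjusted p 0.0304, and between 0.0581 and 0.111 when C1q replicate 2 or 3 or Control replicate 1 or 2 was left out). Grn, for progranulin, a secreted and lysosomal glycoprotein, fell to 14336 ± 671 with C1q against 20361 ± 678 in Control (-0.51, adjusted p 0.0024). Sqstm1, for the autophagy receptor p62, had 9775, 9139 and 9124 with C1q and 11899, 12115 and 9901 in Control, without overlap. It was not called (-0.27, 95% interval -0.49 to -0.045, adjusted p 0.0606, or 0.0415 with the replicate number as a block).

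The summed myogenic markers were 3821 to 5105 with C1q and highest in Control replicates 1 and 2, so the comparison was repeated with Control replicate 3, at 5463, as the only control. Then 26 of the 35 genes were lower and 0 higher, against 16.8% and 21.2% of the 16480 genes tested, with all 15 pump genes among the lower and a median log2 fold change of -0.57. Control replicate 3 still had 3.98% mitochondrial reads, against 1.85% to 2.25% with C1q. Its FAP marker sum, 490291, was below that of every C1q library. The part of these differences in the repeat was not tested. The lone control is assumed to vary like the C1q libraries in the repeated fit. Ctsd, Ctsh, Glb1 and Mcoln1 were not called there.

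Beyond the 35 genes, other lysosomal enzymes were lower more often than higher but in both directions. Of 50 in the table, 24 fell and 11 rose, with a median log2 fold change of -0.27, against 18.7% lower and 19.7% higher over all genes. Lgmn, for the asparaginyl endopeptidase that processes cathepsins, fell to 5089.9 ± 165 with C1q against 11679 ± 1193 in Control (-1.19, adjusted p 2.05e-04). Ctsk, for the collagen-degrading cathepsin K, fell to 2965 ± 260.4 with C1q against 6485 ± 469.9 in Control (-1.13, adjusted p 2.18e-04), and Naglu, of heparan sulfate breakdown, and Dpp7, a dipeptidyl peptidase, by -0.90 and -0.88. Of 33 other lysosomal membrane genes 9 fell (27.3%) and 6 rose (18.2%). Gpnmb, for a glycoprotein induced in stressed lysosomes, was at 3060.0 ± 301 with C1q and 10089 ± 1756 in Control, 3.27-fold lower. Ctns, for the cystine exporter, and Glmp changed by -0.88 and -0.82, while Abcb9, for a peptide transporter, rose by 1.07 (adjusted p for these 4 genes 2.05e-04 to 8.37e-04).

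**Figure D5:**
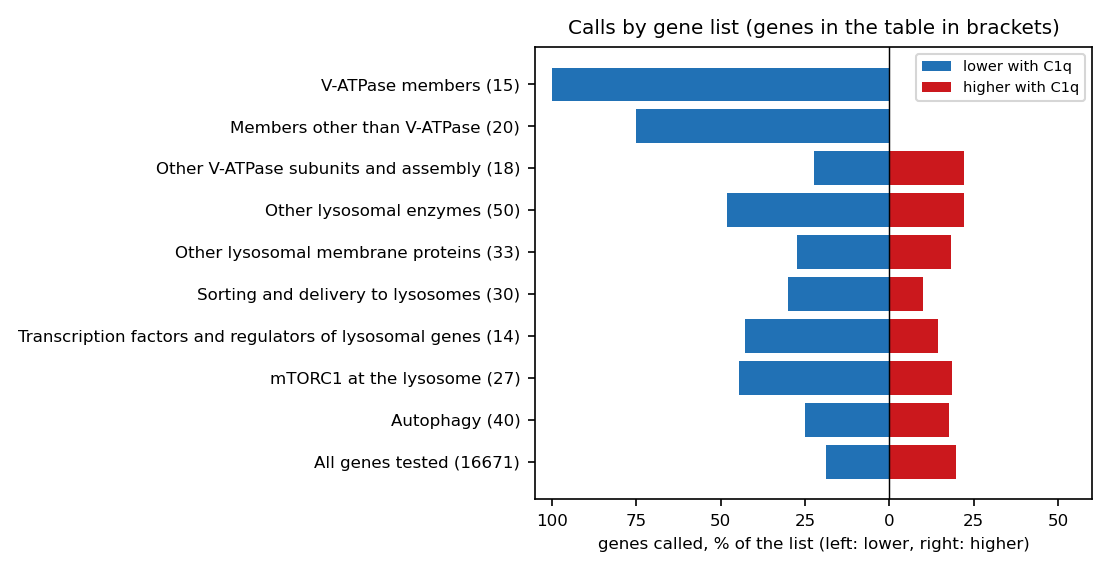
Share of the genes of each list that were called lower (blue, to the left) or higher (red, to the right) with C1q, with the number of genes in the table in brackets. The V-ATPase genes are at 100% lower and all genes tested at 18.7% lower and 19.7% higher, and the autophagy list at 17.5% higher.

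Of 30 genes that sort and deliver enzymes to lysosomes 9 fell (30%) and 3 rose (10%), against 18.7% lower and 19.7% higher over all genes. Among the lower ones were Vps29 of the retromer (-0.86), Ap1s1 of the AP-1 adaptor (-0.71), Cln8 (-0.48) and Vps18 (-0.34), with adjusted p from 2.18e-04 to 0.00373. Of 40 autophagy genes 10 fell and 7 rose (25% and 17.5%), against 18.7% and 19.7% over all genes, with a median log2 fold change of 0.014. The 4 with the lowest p were all higher: Ulk2, a kinase that starts autophagy (0.71), Epg5 (0.73) and Stx17 (0.64), which act in fusion of autophagosomes with lysosomes, and Pik3r4 (0.59), with adjusted p from 3.47e-04 to 7.01e-04. With the length trend removed Epg5 was at 0.18 (adjusted p 0.091) and the other three stayed called.

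Of 14 transcription factors and regulators of lysosomal genes 6 fell (42.9%) and 2 rose (14.3%), against 18.7% and 19.7% over all genes. The blocked fit called 2 each way, below its 19.7% lower and 21.3% higher over all genes. Tfeb stood at 287, 279.7 and 330.2 with C1q and 224, 273 and 357 in Control, with overlapping groups (0.094, adjusted p 0.704). Tfe3 fell slightly, to 1773 ± 97.6 with C1q against 2039 ± 75.2 in Control (-0.20, adjusted p 0.0469, or 0.0651 with the replicate number as a block), and its relative Mitf was at -0.23 (adjusted p 0.0654). Tfe3 lost its call whichever library was left out (adjusted p 0.0505 to 0.163), and both Tfe3 and Mitf were called lower with the length trend removed (-0.57 and -0.45). Foxo3 and Foxo1, forkhead factors, rose by 0.87 and 0.46, but Foxo1 was at -0.054 with the length trend removed (adjusted p 0.743), and Bhlhe40 and Myc fell by 0.65 and 0.57 on the log2 scale (adjusted p for these 4 genes 0.00142 to 0.0331). Myc was at -0.45 with the length trend removed (adjusted p 0.0679).

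Genes of the mTORC1 machinery on the lysosomal surface were lower at 12 (44.4%) and higher at 5 (18.5%) of 27, against 18.7% lower and 19.7% higher over all genes. Lamtor3 and Lamtor1, for subunits of the Ragulator scaffold, fell to 796 ± 25 and 1453 ± 49.9 with C1q, against 1445 ± 82.1 and 2499 ± 240.0 in Control (-0.86 and -0.78, adjusted p 2.38e-04 and 5.16e-04). Fnip2, for a partner of folliculin, fell to 576 ± 32.6 with C1q against 1157 ± 127 in Control (adjusted p 3.63e-04). Sesn3, for a sestrin that restrains mTORC1, rose to 1165 ± 161 with C1q against 452 ± 52.3 in Control (1.36, adjusted p 3.34e-04).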

How the data were processed

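RNA-seq of 3 C1q and 3 Control libraries of FAPs was analysed, grouped by sample titles. The deposited values are a normalised signal: each library's gene counts, keyed by Entrez ID, had been scaled by one factor. The submitters' processing notes list Trimmomatic, HISAT2, featureCounts, DESeq2 and build mm10. Not given in the sources used here are tool versions, the annotation and whether counting used strand. Dividing by the smallest step gave whole reads for 100% of values (within 0.001 of a read), and these recovered reads served the count tests. A read is worth 4.25 units in Control replicate 3 and 0.583 to 0.975 in the other libraries, so Control replicate 3 is the least precise. Replicates differed beyond sampling noise (chi-square per degree of freedom 17.6 to 42.9).

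Symbols came from RefSeq (GRCm38.p6, 16077 of 16671 IDs) and lengths of the longest transcript from GENCODE vM21 (14934 IDs, 89.6%). The longest transcript need not be the one expressed. The test was limma-trend (limma 3.58.1, R 4.3.3) on log2(value + 1), keeping genes whose mean was 1 or more (0 were removed). Fold changes are on that scale and are understated for low genes. The pipeline was tested on simulated data. edgeR 4.0.16 and DESeq2 1.42.0 on the recovered reads, other pseudocounts and filters, array weights, thinning to 5379209 reads, removal of a length trend (loess, span 0.5), a replicate block and leaving out libraries were alternatives; Control replicate 3 as the only control was added after seeing the data. Same-numbered libraries deviated together, though weakly (correlations 0.123, 0.175 and 0.132, all over 0.1). The replicate block took the numbers to pair them, from the data and not the labels, while the main fit was unpaired. Named were all 35 members and all other V-ATPase genes of the list in the table. Also named were the 4 with the lowest p of each other lysosomal list, and Tfeb, Tfe3, Mitf, Pdgfra and Ly6a. Pax7, Acp5, Adgre1 and Fcgr3 are quoted in addition. The genes of the closing observations other than Naglu were chosen after their values were seen. The members and lists were chosen with earlier results of these data known. Some genes of the lists are counted but not reported by name here.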

Additional observations from a re-analysis of the deposited data

How the results depend on the processing

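The count of 30 lower genes was 25 to 32 under every alternative run. It was 25 to 29 when any library was left out (median log2 fold change -0.59 to -0.52), 32 with edgeR and TMM scaling, 31 with DESeq2, 32 with the replicate block, and 30 with the libraries thinned. The replicate block called Gusb and Sqstm1 in addition, lost Tfe3 and gained Wdr7, and changed no other call of a gene named here. The count of higher genes, 0, was 1 with array weights, with the length trend removed (alone or with the replicate block) and at most 1, without Control replicate 3, when a library was left out; the gene was Ctsf each time. With the length trend removed (with or without the block) the median of the 35 was -0.42, and without the block genes called higher numbered 2184. At an adjusted p below 0.01, genes called higher numbered 1943 and genes called lower 1917, in place of 3277 and 3112, and 25 of the 35 were lower. Leaving out a library gave 2332 to 3659 genes called higher and 2264 to 3583 genes called lower, and the replicate block 3548 and 3285. Over 735 pairs of a gene of the 35 and an alternative, 677 kept the direction and the side of the threshold, 33 lost the call, 17 gained it and 8 changed sign. The sign changes were in Lamp2 (0.029 as reported; -0.016 with limma-voom, -0.035 with the length trend removed, with or without the block, -0.16 with Control replicate 3 alone, and -0.024 to 0.12 when a library was left out) and in Scarb2 (-0.21 to 0.0098 when a library was left out), neither of them called. Among the other genes, none of which was called in either version except where stated, signs changed for Atp6v0a2 (0.094 when thinned, -0.15 to 0.11 when a library was left out), Atp6v0a4 (0.34 with Control replicate 3 alone, -0.48 to 0.0096 when a library was left out), Atp6v0e2 (0.073 when thinned, 0.12 with the length trend removed, with or without the block), Atp6v1c2 (1.75 with Control replicate 3 alone, -1.31 to 0.41 when a library was left out), Atp6v1g2 (0.34 with Control replicate 3 alone), Ccdc115 (0.13 with the length trend removed, with or without the block, and with Control replicate 3 alone, -0.13 to 0.026 when a library was left out), Tfeb (-0.26 with Control replicate 3 alone, -0.066 to 0.27 when a library was left out), Wdr7 (-0.087 with the length trend removed, with or without the block) and Foxo1, called as reported (-0.054 with the length trend removed, with or without the block). The causes of these changes were not tested. Low genes such as Atp6v1b1 and Atp6v1c2, with 0 reads in Control replicate 3, cannot be compared at this depth.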

Other observations

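Within the breakdown of glycosaminoglycans, the long sugar chains of matrix proteoglycans, 5 other lysosomal enzyme genes that rose and 1 that fell are given here. They were chosen after their values were seen and are not the whole pathway. Ids, for iduronate sulfatase, rose to 2674 ± 195 with C1q against 1432 ± 261 in Control (0.91, adjusted p 0.00135), Idua, for iduronidase, by 0.46 (adjusted p 0.00274), Arsb by 0.39 (adjusted p 0.00751) and the hyaluronidase gene Hyal1 to 444 ± 29.4 with C1q against 221 ± 28.9 in Control (1.01, adjusted p 7.66e-04). Hgsnat, which acetylates heparan sulfate ends, rose by 0.41 (adjusted p 0.00147). Naglu, which acts on the same chains, fell to 2299.9 ± 107 with C1q against 4297 ± 129 in Control (-0.90, adjusted p 1.96e-04). All 6 genes kept their calls with the length trend removed.

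Other enzymes that rose were Pla2g15, a lysosomal phospholipase, with 2048, 1781 and 1651 normalised reads in C1q replicates 1 to 3 and 992, 913 and 901 in Control replicates 1 to 3 (0.96, adjusted p 3.76e-04), Ctso, for cathepsin O, with 1618, 1715 and 1502 with C1q and 777, 976 and 825 in Control (0.91, adjusted p 5.64e-04), and the mannosidase gene Man2b2 (0.65, adjusted p 5.83e-04). These, too, were chosen after their values were seen.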
